A study of Homo sapiens with 6 samples.

Results

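Immune checkpoint ligands are products by which a tumour cell holds back the immune cells that meet it, and this account follows 8 genes of that kind in U251 cells, an established human glioblastoma line. The 8 were a given list of symbols (CD274, PDCD1LG2, CD276, CD47, LGALS9, LGALS3BP, IDO1 and TNFSF10), matched by Ensembl identifier, out of 20330 Ensembl genes in the tables. One group had a stable excess of XLOC013218, a long noncoding RNA (overexpressing cells, 3 libraries), and the other was labelled control (3 libraries). The sources used here do not say what the control cells carry or how many clones were used. The design text calls the replicates independent and biological, but nothing names separate cultures, so p-values measure the spread between these libraries, which may be technical. Values are FPKM, fragment numbers scaled by transcript length and library size, as the authors deposited them.

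The products act at different points. PD-L1 (CD274) and PD-L2 (PDCD1LG2) bind the receptor PD-1 on T cells and dampen their activation, and B7-H3 (CD276) belongs to the same B7 family. CD47 binds SIRP-alpha (SIRPA) on phagocytes and restrains engulfment. Galectin-9 (LGALS9) binds sugars on TIM-3 (HAVCR2) and other glycoproteins, while LGALS3BP is a secreted glycoprotein that binds galectins and matrix. IDO1 is an enzyme, not a ligand, and opens the breakdown of tryptophan to kynurenine, which starves and restrains T cells. TRAIL (TNFSF10) triggers apoptosis through death receptors. Several of these genes, CD274, LGALS9, LGALS3BP, IDO1 and TNFSF10 among them, are known to respond to interferons.

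The promoters with an interferon-type motif are shown because interferon-stimulated genes are set beside the ligand genes in these libraries. RefSeq's promoter table (build GRCh38.p14) held 6 of the 8 genes, all but PDCD1LG2 and IDO1. In the 250 bases before each start site and the first 10 bases after it, both strands were searched for GAAA and GAAA parted by any 2 bases, the core of the interferon-stimulated response element. It was found in 4 genes and, counted by window rather than by gene, in 3.20% of 35116 promoter windows of that length. CD276 had more than 1 window. The genes were chosen with earlier results of these data known, and no enrichment was measured. Capitals mark the matches, and all sequences run 5′ to 3′ towards the gene.
LGALS3BP (chr17:78979914-78980173, - strand): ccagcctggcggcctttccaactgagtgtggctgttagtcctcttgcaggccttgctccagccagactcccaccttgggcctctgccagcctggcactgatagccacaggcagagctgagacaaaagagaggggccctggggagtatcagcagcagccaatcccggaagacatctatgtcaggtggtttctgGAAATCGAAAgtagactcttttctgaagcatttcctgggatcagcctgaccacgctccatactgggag
LGALS9 (chr17:27630938-27631197, + strand): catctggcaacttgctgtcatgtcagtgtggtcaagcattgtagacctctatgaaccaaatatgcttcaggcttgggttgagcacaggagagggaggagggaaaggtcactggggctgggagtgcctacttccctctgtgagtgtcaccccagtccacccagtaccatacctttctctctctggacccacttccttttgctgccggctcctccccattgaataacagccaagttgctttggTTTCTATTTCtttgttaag
CD274 (chr9:5450292-5450551, + strand): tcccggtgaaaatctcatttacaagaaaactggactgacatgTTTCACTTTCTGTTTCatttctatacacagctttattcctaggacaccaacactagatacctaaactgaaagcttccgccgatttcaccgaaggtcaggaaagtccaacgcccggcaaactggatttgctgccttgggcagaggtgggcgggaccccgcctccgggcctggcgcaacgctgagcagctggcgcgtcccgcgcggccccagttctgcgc
TNFSF10 (chr3:172523421-172523680, - strand): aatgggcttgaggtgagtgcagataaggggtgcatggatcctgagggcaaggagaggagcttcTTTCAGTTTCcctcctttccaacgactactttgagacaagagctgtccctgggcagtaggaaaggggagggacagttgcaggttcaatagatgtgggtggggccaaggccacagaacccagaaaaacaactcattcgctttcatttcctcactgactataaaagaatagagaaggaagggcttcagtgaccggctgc
CD274 held 2 matches that overlap each other, and the others held 1 each. The LGALS3BP match began 58 bases before the start site and the LGALS9 match 9 bases before it. The matches of CD274 and TNFSF10 lay farther out, beginning 208, 202 and 187 bases before the start. CD274 alone of the 6 genes held TTC and GAA parted by any 3 bases, the core of the element bound by activated STAT dimers, which 6.83% of the windows held. The windows of CD47 and CD276 held neither run of letters. A match describes the letters of the reference and no more.

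Libraries were alike in scale. Between 11668 and 11748 genes per library reached 1 FPKM, and FPKM summed over genes to between 598683 and 621922. Read totals are unknown. The glioma label was set against fixed markers: VIM averaged 3581 FPKM in overexpressing cells and 3840 FPKM in control cells, and SOX2 averaged 102 FPKM in overexpressing cells and 116 FPKM in control cells. GFAP, the astrocyte filament gene, was at 30.05, 14.36 and 20.43 FPKM in overexpressing cells, against 34.68, 45.98 and 44.13 FPKM in control cells (limma adjusted p = 0.107). It was lower without overlap in overexpressing cells. S100B, another astroglial marker, stayed below 1 FPKM in all 6 libraries. Of 19 T, NK, B and myeloid cell markers, 1 reached a mean of 1 FPKM, CD14. The T and NK markers summed to 0.03 to 0.23 FPKM in overexpression libraries and 0 to 0.02 FPKM in control libraries, and CD3E, CD2 and NKG7 were listed at 0 throughout. The B cell markers summed to 0 to 0.1 FPKM in overexpression libraries and 0.04 to 0.05 FPKM in control libraries. T, NK and B cell transcripts were thus at or near 0 in both groups. The myeloid markers summed to 2.71 to 3.31 FPKM in overexpression libraries and 1.92 to 2.37 FPKM in control libraries. XLOC013218 was not analysed here.

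No checkpoint ligand gene passed the test between the groups. The test was limma on log2(FPKM + 1) over all 11704 genes with a mean of at least 1 FPKM, with Benjamini-Hochberg adjustment and a threshold of 0.05. IDO1 fell below that mean, so 7 of the 8 were tested. Of these, 0 were called, where 61 genes or 0.521% were called over the whole table. At an unadjusted p under 0.05 there were 3 of the 7, LGALS3BP, CD47 and LGALS9, where the share over all tested genes was 12.7%. All 3 were higher, as were 5.79% of all tested genes at that p. In the same 3 genes every overexpression value lay above every control value, which held for 8.81% of tested genes, and 0 ligand genes were lower without overlap, against 10.1% of tested genes. The median log2 fold change was 0.14 for the 7 ligand genes, against -0.001 for all tested genes. In bulk RNA, fewer expressing cells and less RNA per cell cannot be told apart.

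**Figure D1:**
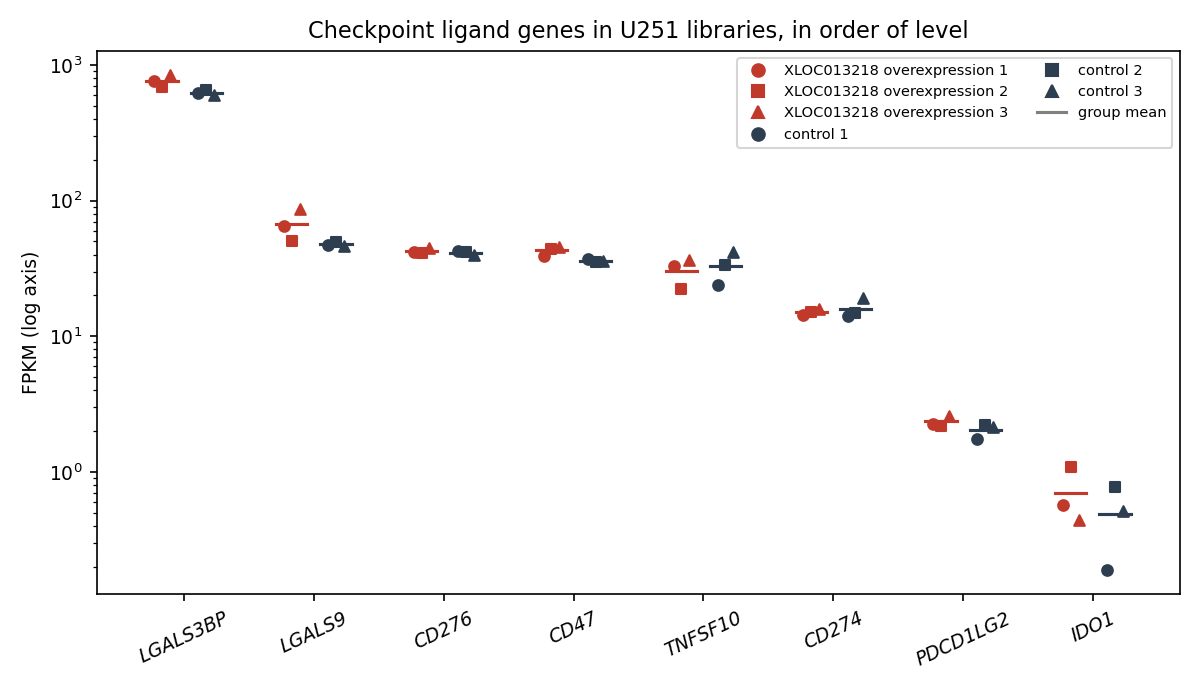
FPKM on a log axis of the 8 checkpoint ligand genes, in order of mean level, in 3 libraries that overexpress XLOC013218 (red) and 3 control libraries (dark), with bars at the group means. LGALS3BP lay between 599.90 and 837.88 FPKM and IDO1 between 0.19 and 1.08 FPKM, and the groups did not overlap for LGALS3BP, LGALS9 and CD47.

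The galectin-related pair, LGALS3BP and LGALS9, stood highest in level. LGALS3BP (ENSG00000108679, chromosome 17) was at 760.91, 684.23 and 837.88 FPKM in overexpression replicates 1 to 3, against 622.75, 656.76 and 599.90 FPKM in control replicates 1 to 3. All 3 overexpression values were above the control values, with overexpression replicate 2 only a little above control replicate 2. The means were 761 ± 76.8 FPKM in overexpressing cells and 626 ± 28.6 FPKM in control cells (SD, n = 3 each). The log2 fold change was 0.28 (SE 0.07, 95% interval 0.11 to 0.44), and it did not pass (limma adjusted p = 0.158). By level LGALS3BP ranked 128 among the tested genes.

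LGALS9 (ENSG00000168961, chromosome 17) was at 64.48, 50.48 and 86.87 FPKM in overexpressing cells, against 46.93, 49.71 and 46.22 FPKM in control cells. Overexpression replicate 3 was far above the others of its group, and replicate 2 exceeded the highest control by less than 1 FPKM. The spread was wide in overexpressing cells, at 67.3 ± 18.4 FPKM, and narrow in control cells, at 47.6 ± 1.84 FPKM (SD, n = 3 each). Its log2 fold change of 0.46 was the largest of the ligand genes (SE 0.16, 95% interval 0.11 to 0.81, limma adjusted p = 0.269). It was 0.26 without overexpression replicate 3 and 0.64 without overexpression replicate 2, past the threshold in neither fit. LGALS9 has near-identical copies, LGALS9B and LGALS9C, so the split of reads among the 3 is uncertain. The copies together were listed at 0.12 to 0.39 FPKM in overexpression libraries and 0.02 to 0.05 FPKM in control libraries.

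Among the galectins that LGALS3BP binds, LGALS1 was the most abundant, at 2004 ± 126 FPKM in overexpressing cells and 2038 ± 145 FPKM in control cells. LGALS3, the galectin for which LGALS3BP is named, was at 34.44, 38.96 and 39.35 FPKM in overexpressing cells, against 53.26, 47.27 and 41.98 FPKM in control cells. It thus lay lower without overlap, opposite in sign to LGALS3BP, but did not pass (limma adjusted p = 0.164, log2 fold change -0.33 with an SE of 0.09). The ratio of LGALS3BP to LGALS3 was 17.6 to 22.1 in overexpression libraries and 11.7 to 14.3 in control libraries. That separation follows from the values above and is no further test. LGALS8, a galectin with paired sugar-binding domains, and LGALSL, a galectin-like protein, were at 26.5 ± 2.55 and 3.74 ± 0.625 FPKM in overexpressing cells, against 24.1 ± 4.35 and 3.46 ± 1.25 FPKM in control cells. Of the 4 galectins tested beside LGALS9, 0 were called, and the other 10 of the list were below the minimum mean. Of 7 tested LGALS3BP partners 0 were called. Its matrix and integrin partners COL6A1, a collagen VI chain, and ITGB1, the beta-1 integrin, were at 99.1 ± 13.1 and 189 ± 10.3 FPKM in overexpressing cells, against 129 ± 0.772 and 205 ± 16.9 FPKM in control cells (limma adjusted p = 0.102 and 0.541). COL6A1 was lower without overlap.

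CD47 (ENSG00000196776, chromosome 3) had 39.36, 44.04 and 45.36 FPKM in overexpressing cells, against 36.82, 35.24 and 36.17 FPKM in control cells. The groups did not overlap, and overexpression replicate 1 was the one nearest the controls. The means were 42.9 ± 3.15 FPKM in overexpressing cells and 36.1 ± 0.794 FPKM in control cells (SD, n = 3 each), a ratio of 1.19. The log2 fold change was 0.24 (SE 0.06, 95% interval 0.10 to 0.39) and did not pass (limma adjusted p = 0.158). The interval allows a change of 1.07-fold to 1.31-fold.

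The 12 related lists were chosen with earlier results of these data known, so their share of calls is no test. In them 2 of 91 tested genes, or 2.2%, were called, where 0.521% were called over the whole table. THBS1, thrombospondin-1, a matrix glycoprotein that also binds CD47, was 1 of them. It was at 148.16, 131.28 and 134.80 FPKM in overexpressing cells, against 92.37, 97.57 and 104.98 FPKM in control cells, and it rose without overlap (log2 fold change 0.49, limma adjusted p = 0.0241). Without overexpression replicate 2 it also passed (limma adjusted p = 0.0221), but not without any other library (limma adjusted p = 0.0553 to 0.101). CALR, a chaperone that on the cell surface prompts engulfment, was at 935 ± 11.5 FPKM in overexpressing cells and 791 ± 21.7 FPKM in control cells, just short of the threshold (limma adjusted p = 0.0535). QPCTL, the enzyme that modifies the CD47 end bound by SIRP-alpha, was at 17.9 ± 1.13 FPKM in overexpressing cells and 17.5 ± 1.24 FPKM in control cells. The integrin chains ITGAV and ITGB3, which pair with each other and associate with CD47, were at 55.0 ± 2.23 and 3.74 ± 0.378 FPKM in overexpressing cells, against 64.1 ± 4.14 and 2.95 ± 0.167 FPKM in control cells, neither past the threshold. SIRPA was low, at 0.7 to 1.17 FPKM in overexpression libraries and 0.6 to 0.8 FPKM in control libraries, below the minimum mean. Of the 6 tested CD47 partners and enzymes, 1 rose, 0 fell and 5 were not called.

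The PD-1 ligands were not higher or lower beyond their spread. CD274 (ENSG00000120217, chromosome 9) was at 14.40, 15.06 and 15.89 FPKM in overexpressing cells, against 14.02, 14.89 and 19.06 FPKM in control cells. The overexpression values lay inside the control range, which control replicate 3 stretched upwards. The log2 fold change was -0.07 (SE 0.11, 95% interval -0.31 to 0.18, limma adjusted p = 0.850), which allows anything from 0.807-fold to 1.13-fold. The sign turned to 0.06 without control replicate 3.

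PDCD1LG2 (ENSG00000197646, chromosome 9) was far lower, at 2.27, 2.18 and 2.59 FPKM in overexpressing cells, against 1.76, 2.21 and 2.14 FPKM in control cells. The groups overlapped by a single pair of values, overexpression replicate 2 and control replicate 2 (log2 fold change 0.14, SE 0.12, 95% interval -0.13 to 0.41, limma adjusted p = 0.678). The log2 fold change was 0.07 without control replicate 1 and 0.09 without overexpression replicate 3. CD274 exceeded PDCD1LG2 by 6.14 to 6.91 times in overexpression libraries and by 6.74 to 8.91 times in control libraries. Their receptor gene PDCD1 had a value of 0 throughout. The 7 tested neighbours of these adjacent genes on chromosome 9 had 0 calls, a median log2 fold change of -0.03 and a range of -0.25 to 0.10. The most abundant, PLGRKT, UHRF2, RANBP6 and RIC1, had log2 fold changes of -0.16, -0.01, 0.01 and 0.10. PLGRKT was lower without overlap, at 20.56 to 26.88 FPKM in overexpression libraries and 27.12 to 27.84 FPKM in control libraries (limma adjusted p = 0.548). UHRF2 was at 24.69 to 27.56 FPKM in overexpression libraries and 23.38 to 28.81 FPKM in control libraries. Of the 7 neighbours, 2 were lower and 0 higher without overlap, against 10.1% and 8.81% of all tested genes.

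CD276 (ENSG00000103855, chromosome 15) was at 41.54, 41.10 and 44.44 FPKM in overexpressing cells, against 42.63, 41.80 and 39.81 FPKM in control cells. It had the narrowest interval of the ligand genes, from -0.09 to 0.16 around 0.03 on the log2 scale (standard error 0.06; adjusted p from limma 0.861). Changes beyond 0.937-fold and 1.12-fold thus lay outside the interval. CD276 made up 70.4% to 71.4% of the summed FPKM of CD274, PDCD1LG2 and CD276 in overexpression libraries and 65.3% to 73.0% in control libraries. Among other B7 and butyrophilin-like ligands 7 of 13 were tested and 0 called. The butyrophilins BTN2A1, BTN3A2, BTN2A2 and BTN3A1, whose products include regulators of gamma-delta T cells, had log2 fold changes of 0.06, 0.21, -0.06 and 0.26, with all groups overlapping. BTN2A1, the most abundant, was at 18.40 to 21.38 FPKM in overexpression libraries and 18.28 to 20.30 FPKM in control libraries.

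TNFSF10 (ENSG00000121858, chromosome 3) was the most variable tested ligand gene on the log2 scale. It was at 32.80, 22.31 and 36.19 FPKM in overexpressing cells, against 23.68, 33.80 and 42.13 FPKM in control cells. Both groups spanned nearly the same range, with overexpression replicate 2 and control replicate 1 low. The 95% interval ran from -0.59 to 0.36 around a log2 fold change of -0.11 with an SE of 0.21 (limma adjusted p = 0.870). With this spread the interval allows anything from 0.664-fold to 1.29-fold for TNFSF10. Its sign turned to 0.09 without overexpression replicate 2 and to 0.07 without control replicate 3.

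Of the receptors for TRAIL, the death receptor TNFRSF10B carried nearly all of the signal, at 50.63, 46.19 and 50.06 FPKM in overexpressing cells, against 52.56, 48.79 and 50.79 FPKM in control cells. The other death receptor, TNFRSF10A, was listed at 0.04 to 0.41 FPKM in overexpression libraries and 0 to 0.02 FPKM in control libraries. The decoy receptor TNFRSF10C was at 1.15 to 2.10 FPKM in overexpression libraries and 1.29 to 2.08 FPKM in control libraries, and the decoy TNFRSF10D at no more than 0.03 FPKM. Downstream, the adaptor FADD was at 34.2 ± 1.91 FPKM in overexpressing cells and 34.8 ± 0.826 FPKM in control cells. The initiator caspase gene CASP8 was at 7.02 ± 0.576 FPKM in overexpressing cells and 7.35 ± 0.846 FPKM in control cells. CFLAR, the inhibitor of that caspase, was at 12.4 ± 0.176 FPKM in overexpressing cells and 14.2 ± 1.32 FPKM in control cells, lower without overlap (log2 fold change -0.18, limma adjusted p = 0.397). Of the 5 tested genes in this list 0 were called.

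IDO1 (ENSG00000131203, chromosome 8) was barely detected, at 0.57, 1.08 and 0.44 FPKM in overexpressing cells, against 0.19, 0.77 and 0.51 FPKM in control cells. The groups overlapped, and replicate 2 was the highest of each group. With the filter on low values removed, limma gave an adjusted p of 0.775 at a log2 fold change of 0.19 and an SE of 0.19. TDO2, the other main enzyme of this step, named after its values were seen, was at 0.22 to 0.59 FPKM in overexpression libraries and 0.14 to 0.48 FPKM in control libraries. Among 8 tested genes of the kynurenine list, 1 rose and 7 were not called. The riser was SLC7A5, a carrier of large neutral amino acids that takes up tryptophan, at 80.26, 69.20 and 73.15 FPKM in overexpressing cells, against 51.99, 55.34 and 51.01 FPKM in control cells (log2 fold change 0.48, limma adjusted p = 0.0241). Without overexpression replicate 2 it also passed (limma adjusted p = 0.0163), but not without any other library (limma adjusted p = 0.0553 to 0.105). Its partner chain SLC3A2 and the tryptophanyl-tRNA synthetase WARS1 were at 156 ± 5.88 and 128 ± 10.6 FPKM in overexpressing cells, against 132 ± 4.92 and 100 ± 2.07 FPKM in control cells. Neither passed, at limma adjusted p = 0.0834 and 0.0535. AFMID and KYAT3, which act after the first step, were at 20.9 and 24.5 FPKM in overexpressing cells, against 21.2 and 24.7 FPKM in control cells.

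**Figure D2:**
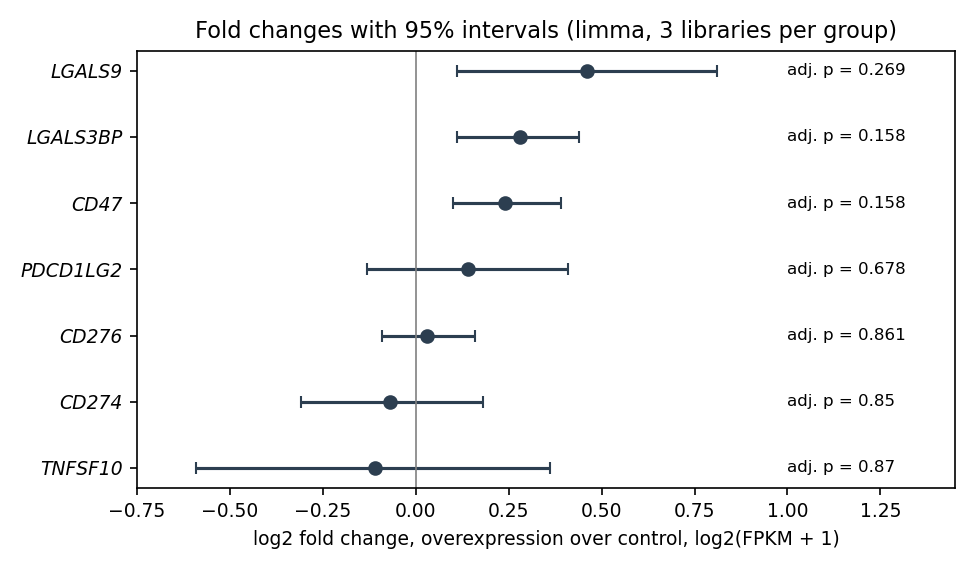
Log2 fold changes of the 7 tested checkpoint ligand genes (points, overexpression over control on the log2(FPKM + 1) scale) with 95% intervals from limma that are not adjusted for the number of genes, and the adjusted p of each. The intervals of LGALS9, LGALS3BP and CD47 lay above 0 before adjustment, and adjusted p ran from 0.158 to 0.870.

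Set in order of level, the genes ran LGALS3BP, LGALS9, CD276, CD47, TNFSF10, CD274, PDCD1LG2 and IDO1. FPKM are scaled by length, so that they can be set side by side. In overexpressing cells CD276 and CD47 overlapped, at 41.10 to 44.44 and 39.36 to 45.36 FPKM, and no other neighbours in the order did. In control cells CD47 and TNFSF10 overlapped, at 35.24 to 36.82 and 23.68 to 42.13 FPKM, and again no other neighbours did. TNFSF10 also overlapped CD276 in control cells, at 39.81 to 42.63 FPKM, though these are not neighbours in the order. Of the tested genes, 98.9% lay below LGALS3BP in mean level, 82.5% below LGALS9, 47.3% below CD274 and 7.53% below PDCD1LG2.

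The ligand genes were set library by library beside the interferon-stimulated genes. That list had 36 tested genes, of which 16 rose, 0 fell and 20 were not called, with a median log2 fold change of 0.56. Over all tested genes 0.316% rose and 0.205% fell. The list's genes were measured in the same 6 libraries, so the list is no independent reference. Leaving out overexpression replicate 1, 2 or 3 gave 1, 18 or 8 risers, and leaving out any 1 control library gave 0, as did a fit with no filter on low values or without a trend. Quantile normalization gave 9 and array quality weights gave 23. Relative to the average control level, the list's mean log2 level stood at 0.54, 0.40 and 0.88 in overexpressing replicates 1 to 3, against -0.07, 0.05 and 0.03 in control replicates 1 to 3. LGALS9 deviated by 0.43, 0.08 and 0.85 in overexpression replicates 1 to 3, against -0.02, 0.06 and -0.04 in control replicates. LGALS3BP deviated by 0.28, 0.13 and 0.42 in overexpression replicates, against -0.01, 0.07 and -0.06 in control replicates. PDCD1LG2 deviated by 0.11, 0.07 and 0.24 in overexpression replicates, against -0.13, 0.08 and 0.05 in control replicates. CD276 deviated by 0.00, -0.01 and 0.10 in overexpression replicates, against 0.04, 0.01 and -0.06 in control replicates. TNFSF10 deviated by 0.02, -0.52 and 0.16 in overexpression replicates, against -0.43, 0.06 and 0.37 in control replicates. In all 5 of these genes, as in the list, overexpression replicate 3 was the highest of its group and replicate 2 the lowest, so this order did not set LGALS9 and LGALS3BP apart. CD47 had another order, at 0.12, 0.28 and 0.32 in overexpression replicates, against 0.03, -0.03 and 0.00 in control replicates. CD274 deviated by -0.13, -0.07 and 0.00 in overexpression replicates, against -0.17, -0.08 and 0.25 in control replicates. Over all 6 libraries TNFSF10 and CD274 were highest in control replicate 3, where the list stood near its control mean.

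**Figure D3:**
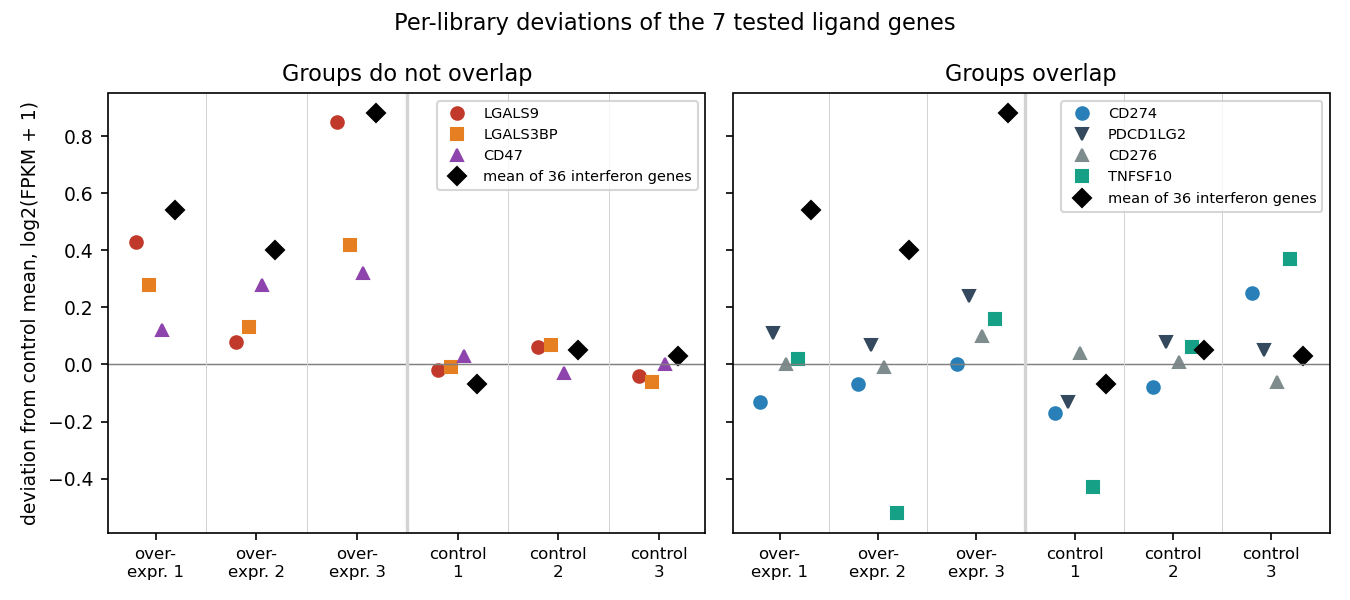
Deviation of each library from the control mean on the log2(FPKM + 1) scale for LGALS9, LGALS3BP and CD47 (left) and for CD274, PDCD1LG2, CD276 and TNFSF10 (right), with the mean of 36 interferon-stimulated genes (black diamonds) in both panels. Within the overexpression libraries, the interferon genes and all ligand genes but CD47 and CD274 were highest in replicate 3 and lowest in replicate 2, and over all 6 libraries CD274 and TNFSF10 were highest in control replicate 3.

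As a description over 6 libraries that include the group difference, the Pearson correlation with the single interferon-stimulated genes had a median of 0.952 for LGALS3BP, 0.912 for LGALS9, 0.840 for CD47 and 0.816 for PDCD1LG2. It was 0.553 for CD276, 0.0944 for TNFSF10 and -0.112 for CD274. The tested genes most like LGALS3BP were IFITM3, an interferon-induced membrane protein that is itself on the interferon list, and ZNFX1, an RNA helicase (r = 0.997 and 0.993, n = 6 libraries). STAT2, a factor of interferon signalling, was the gene most like LGALS9 (r = 0.988). Those most like CD47 were LTV1, a ribosome assembly factor, and CENPU, a centromere protein (r = 0.994 and 0.993). CRYBG3 and TOR1AIP1 were most like CD274 (r = 0.996 and 0.990), EMG1 and ZNF431 most like PDCD1LG2 (r = 0.989 and 0.982), VASN and C5orf15 most like CD276 (r = 0.989 and 0.986), and ZNF573 and ARL14EPL most like TNFSF10 (r = 0.991 and 0.988). With 6 libraries high values are common: between 17 and 74 genes exceeded an r of 0.95 with a given ligand gene.

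The known controllers of CD274 had 0 calls. Of 21 tested inducers and brakes of its transcription, the median log2 fold change was 0.02. Of these 21, 5 were higher and 2 lower without overlap, against 8.81% and 10.1% of all tested genes. HIF1A, the hypoxia factor, STAT3, a cytokine-activated factor, and IRF9, a partner of STAT2, were at 137, 106 and 74.2 FPKM in overexpressing cells, against 137, 116 and 72.8 FPKM in control cells. STAT3 was lower without overlap (limma adjusted p = 0.333). IRF1, which acts directly on the CD274 promoter and is named here after its values were seen, was at 46.6 ± 3.60 FPKM in overexpressing cells and 44.0 ± 0.780 FPKM in control cells. Of 15 tested regulators of the PD-L1 protein 0 were called, with a range of log2 fold changes from -0.23 to 0.20. The most abundant were CDK4, STT3A, USP22 and STUB1, at 227, 151, 119 and 120 FPKM in overexpressing cells, against 220, 141, 138 and 129 FPKM in control cells. STT3A was higher without overlap, and USP22 and STUB1 were lower without overlap (limma adjusted p = 0.393, 0.200 and 0.429). Of the 15 regulators, 4 were lower and 1 higher without overlap.

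Over the 12 related lists together, 91 of 148 genes were tested, 2 rose and 0 fell. The called share was 2.2%, against 0.521% over the whole table. Other inhibitory surface and secreted ligands had 0 calls among 10 tested. HLA-E, the class I molecule that engages the inhibitory receptor NKG2A, came nearest, at 132.55, 110.97 and 144.72 FPKM in overexpressing cells, against 96.98, 96.74 and 88.18 FPKM in control cells (log2 fold change 0.45, limma adjusted p = 0.0708). It was higher without overlap. HMGB1, a nuclear protein that acts as an alarm signal outside the cell, and the surface proteins CD99 and CD59 were at 372, 142 and 107 FPKM in overexpressing cells, against 338, 160 and 114 FPKM in control cells. HLA-E shares sequence with other class I genes, so the split of its reads is uncertain. The 10 listed checkpoint and costimulatory receptors of immune cells, with CD80, a B7 ligand, counted among them, were all below the minimum mean. HAVCR2 was at no more than 0.07 FPKM. Together the 10 genes summed to 1.13 to 1.68 FPKM in overexpression libraries and 0.87 to 0.94 FPKM in control libraries.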

How the data were processed

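RNA sequencing of 6 U251 libraries was taken as the authors deposited it: 1 table per library of gene-level FPKM, rounded to 2 decimals. RSEM 1.3.1, Cufflinks 2.2.1, edgeR, Bowtie, TopHat and the build hg18 appear in the submitters' processing notes without roles, so the tool behind the deposited FPKM is unknown here. Poly(A) selection is stated per the labels' protocols and denied by the design text, which speaks of cytoplasmic RNA. Symbols came from a name table (19447 of 20330 identifiers), chromosomes from RefSeq. Assembled XLOC loci were not used.

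Groups came from the titles. The 11704 genes averaging 1 FPKM or more across libraries were fitted on log2(FPKM + 1), which understates changes of low genes, with limma 3.58.1 (trend) in R 4.3.3. The test was two-sided, with Benjamini-Hochberg adjusted p-values over the whole table. An exact permutation test of 3 against 3 libraries cannot go below 0.1. The fit was tested on simulated data. Summaries used Python 3.11.15. FPKM carry no read totals, so no counting intervals are given.

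The ligand genes and the related lists were chosen with earlier results of these data known. All 8 ligand genes are named, and from each list the called genes and up to 4 others of highest level; the receptors PDCD1, SIRPA, HAVCR2 and TNFRSF10A to TNFRSF10D are always named. For each tested ligand gene the 2 genes of highest correlation are named. Some genes that these rules select are not reported here. Alternatives were another pseudocount, other filters, scalings, variance settings, weights and a replicate block, and leaving out each library.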

Additional observations from a re-analysis of the deposited data

How the results depend on the processing

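No checkpoint ligand gene passed under any of the 14 alternatives. Over these, the limma adjusted p ran from 0.0530 to 0.421 for CD47, from 0.0724 to 0.468 for LGALS9 and from 0.0724 to 0.339 for LGALS3BP, and the 3 kept a positive sign. The mean log2 fold change of the tested ligand genes was 0.14, between 0.13 and 0.16 under other settings and between 0.06 and 0.21 with 1 library left out. CD274 turned to 0.01 with array quality weights, and to 0.06 without control replicate 3 in a range of -0.15 to 0.06 with 1 library left out. TNFSF10 turned to 0.09 without overexpression replicate 2 and 0.07 without control replicate 3, in a range of -0.33 to 0.09. CD276 turned to -0.003 without overexpression replicate 3, in a range of -0.003 to 0.05. The causes were not tested.

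The number of genes past the threshold, 61, was 1 with no filter on low values and without a trend, 196 with array quality weights and 19 with the replicate block, and between 1 and 60 with 1 library left out. The number in the related lists, 2, was 0 with no filter, without a trend and with the replicate block, 4 with a mean of at least 5 FPKM and 8 with array quality weights, and between 0 and 4 with 1 library left out. The 16 risers of the interferon list were 9 with the replicate block. PDCD1LG2 was not tested at a mean of at least 5 FPKM.

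The groups share replicate numbers, but deviations of same-numbered libraries correlated at -0.0399, -0.0564 and 0.0490, so the numbers were not taken to pair them. Replicate 3 of both groups correlated best with its own number, and replicates 1 and 2 did not. With 3 libraries per group and no read totals, small differences of low genes such as PDCD1LG2 and IDO1 were not detectable.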

Other observations

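Costimulatory ligands of the tumour necrosis factor family, which act in the opposite sense to checkpoint ligands, were also present. CD70, the ligand of CD27, was at 828.03, 662.30 and 737.83 FPKM in overexpressing cells, against 635.64, 659.32 and 672.66 FPKM in control cells, a level close to that of LGALS3BP. Overexpression replicate 2 lay inside the control range, and the gene did not pass (log2 fold change 0.17, limma adjusted p = 0.382). TNFSF18, the ligand of GITR, was at 10.22, 10.42 and 9.92 FPKM in overexpressing cells, against 7.02, 7.25 and 8.01 FPKM in control cells. The groups were apart and each was narrow, and the gene missed the threshold (log2 fold change 0.41, SE 0.08, limma adjusted p = 0.0742). TNFSF4, the ligand of OX40, was at 31.2 ± 0.348 FPKM in overexpressing cells and 33.5 ± 0.540 FPKM in control cells, and TNFSF13, a B cell survival factor, at 5.13 ± 0.606 FPKM in overexpressing cells and 5.82 ± 0.500 FPKM in control cells (SD, n = 3 each). Of the 4 tested genes of this list 0 were called.

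PTPRC, the leukocyte antigen CD45, was chosen after its values were seen. It was listed at 0.65, 0.39 and 0.52 FPKM in overexpressing cells, against 0.13, 0.17 and 0.15 FPKM in control cells, apart but below the minimum mean. CD3E and NKG7, markers of T and NK cells, were listed at 0 in all 6 libraries.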
